A study of Mus musculus with 6 samples.

Results

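Genomic imprinting was examined through a list of 32 genes known as imprinted in the mouse. For 6 of them the expressed copy depends on tissue. The list was chosen with earlier results of these data known. All 32 were listed in at least 1 of 6 bulk RNA sequencing (bulk-seq) libraries of spinal cord, among 25576 genes in all, and 31 were above 0 in every library. The study compared type I Taiwanese SMA mice, a severe mouse model of spinal muscular atrophy, with control mice at postnatal day 4 (P4). Mice of both groups were on the FVB background and carried the human SMN2 transgene on one chromosome (hSMN22tg/0 in the labels). SMA mice were null for the mouse gene (mSmn-/-) and control mice were heterozygous (mSmn+/-), so that no library came from a wild-type mouse. There were 3 libraries for each group. The study's methods describe triplicates with n = 1 per group, so p-values measure only the spread between these libraries, which may be technical.

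An imprinted gene is silenced on the copy inherited from the mother or on that from the father, through DNA methylation laid down in the germ line at a control region. Such genes lie in clusters, where one control region often governs both protein-coding genes and long noncoding RNAs. Many of them regulate fetal growth, and in the brain and spinal cord several are most strongly expressed in neurons. FPKM counts transcripts of both copies together, so the values say nothing on which parental copy was transcribed.

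Smn1, the targeted gene, was listed at 10.4, 8.64 and 11.9 FPKM in the control libraries and 8.48, 9.30 and 11.1 FPKM in the SMA libraries. Values are given in the order of replicates 1 to 3 here and below. Levels of the 2 groups ran into each other, with p = 0.6 from the exact permutation of all 6 libraries, so the values do not check the labels and the groups are named as labelled. Without control replicate 2 the log2 fold change of Smn1 was -0.20 (exact permutation p = 0.3), with overlap. It became -0.30, past an unadjusted p of 0.05 in limma, only when SMA replicate 3 was left out as well. The number of reads behind the values is unknown. Relative depth, read from the most frequent ratio of FPKM values under 0.15, was between 1 and 1.16 times that of SMA replicate 1. The libraries listed 21197 to 22296 genes each.

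Control replicate 2 stood apart from all other libraries. Pearson's r of log2(FPKM + 1) across genes, which are not independent replicates, was 0.914 to 0.921 between this library and the others, and 0.989 or above for every pair among the other 5. Its 20 hepatocyte marker genes summed to 38346 FPKM, against 69.6 to 147 FPKM elsewhere, with Alb, the serum albumin gene, as the most abundant at 15894 FPKM. Its 9 listed erythroid markers summed to 18856 FPKM, against 1115 to 1863 FPKM elsewhere, with Hbb-bs the most abundant at 7026 FPKM. Its 10 neuron markers summed to 795 FPKM, against 1456 to 1584 FPKM elsewhere, with Stmn2 the most abundant. All 20 hepatocyte markers and 9 erythroid markers were higher in this library than in any other, and all 10 neuron markers were lower. In bulk tissue, fewer cells of a type and less RNA per cell cannot be told apart. Whether this library holds RNA of spinal cord alone was not tested, so its levels, and control means that include it, are given as listed. Tests of SMA against control were run on the 6 libraries and on the 5 without control replicate 2.

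The members lie on 10 chromosomes, with 10 members on chromosome 7 and 5 each on chromosomes 6 and 12. GENCODE annotates 25 of them as protein-coding and 7 as noncoding RNAs. For 17 members the files give a span other than that of GENCODE. Exon bases are shared with a listed gene on the opposite strand for 6 members and on the same strand for 1, Commd1, so those levels are less certain.

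The sequences that follow serve to show what these loci hold beside the measured transcripts. H19, a maternally expressed noncoding RNA at chr7:142575529-142578143 (GRCm38, minus strand), is the precursor of miR-675. Rtl1, a gene derived from a retrotransposon at chr12:109589193-109600330 (minus strand), is transcribed from the father's copy. Of the 7 miRNA hairpins within its span, 6 are read from the opposite strand, which is transcribed from the mother's copy, so that these miRNAs match Rtl1 transcripts base for base. Mirg (chr12:109729764-109749460, plus strand) spans 14 hairpins, Rian (chr12:109603940-109661716) 3 and Meg3 (chr12:109541001-109571726) 1, beside the mature miR-1906, which has no hairpin entry in the table. Of 54 hairpins on the plus strand between the start of Dlk1 and the end of Mirg, these 3 spans hold 18. No miRNA gene inside a member was listed in the FPKM files, so the miRNAs themselves were not measured. Mature miRNAs are given 5′ to 3′ as RNA from RefSeq (GRCm38.p6), with the seed (bases 2 to 8) in capitals. The first pair lies in H19, the next 10 lie opposite Rtl1, and the last pair, in Mirg, is the only one among 54 mature miRNAs within members that shares a seed.
miR-675-5p: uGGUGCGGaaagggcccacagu
miR-675-3p: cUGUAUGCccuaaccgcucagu
miR-431-5p: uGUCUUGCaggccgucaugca
miR-431-3p: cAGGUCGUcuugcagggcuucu
miR-433-5p: uACGGUGAgccugucauuauuc
miR-433-3p: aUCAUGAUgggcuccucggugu
miR-127-5p: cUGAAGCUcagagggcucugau
miR-127-3p: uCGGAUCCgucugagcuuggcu
miR-434-5p: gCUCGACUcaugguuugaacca
miR-434-3p: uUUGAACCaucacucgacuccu
miR-136-5p: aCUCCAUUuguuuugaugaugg
miR-136-3p: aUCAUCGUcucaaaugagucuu
miR-453: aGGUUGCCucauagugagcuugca
miR-496a-5p: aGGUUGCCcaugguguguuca

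RefSeq held promoter entries for 25 members, and none for H19, Rtl1, Sgce, Impact, Peg13, Peg10 and Cdkn1c. Of the 24 tested among these 25 (all but Phlda2), Slc38a4 and Grb10 were highest in control replicate 2 relative to the median of the other libraries. Meg3 kept a narrow ratio to Mirg across the libraries, and Peg3 and Usp29 start head to head, 146 bases apart. The first 3 windows are the 250 bases before the start on the gene's own strand, Slc38a4 at chr15:97055957-97056206 (minus), Grb10 at chr11:12037421-12037670 (minus, within the longest Grb10 transcript) and Meg3 at chr12:109540746-109540995 (plus). The stretch between Peg3 and Usp29 is chr7:6730432-6730577 on the plus strand. Slc38a4, Grb10 and Meg3 have further promoter entries, and the window before the first listed is given. No GENCODE exon overlaps any of the 4. The capitals mark TGCCGC on either strand, the hexamer that the zinc finger protein ZFP57 binds when methylated.
Slc38a4: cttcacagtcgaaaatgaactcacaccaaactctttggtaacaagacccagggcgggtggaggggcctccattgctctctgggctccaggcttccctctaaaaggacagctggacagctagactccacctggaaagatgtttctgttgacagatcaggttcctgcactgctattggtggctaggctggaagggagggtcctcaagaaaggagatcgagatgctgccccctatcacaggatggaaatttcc
Grb10: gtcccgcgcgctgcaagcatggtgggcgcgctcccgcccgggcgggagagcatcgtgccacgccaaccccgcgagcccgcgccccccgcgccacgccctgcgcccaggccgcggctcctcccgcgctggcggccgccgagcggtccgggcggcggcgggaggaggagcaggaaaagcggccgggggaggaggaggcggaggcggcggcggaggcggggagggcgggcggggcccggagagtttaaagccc
Meg3: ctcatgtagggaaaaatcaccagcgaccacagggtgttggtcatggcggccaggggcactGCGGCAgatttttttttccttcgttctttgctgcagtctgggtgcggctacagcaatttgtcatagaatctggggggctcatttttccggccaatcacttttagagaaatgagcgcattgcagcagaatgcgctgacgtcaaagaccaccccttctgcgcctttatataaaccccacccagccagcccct
Peg3-Usp29: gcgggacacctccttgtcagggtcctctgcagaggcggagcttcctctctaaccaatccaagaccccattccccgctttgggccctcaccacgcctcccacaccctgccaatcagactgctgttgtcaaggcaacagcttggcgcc

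The 4 sequences differed widely in CG dinucleotides, with 40 in the Grb10 window, 10 in that of Meg3, 3 in that of Slc38a4 and 5 between Peg3 and Usp29. Over all 27025 genes with an entry the median was 6, and over the 25 members it was 10, taking the first entry of each gene. TGCCGC on either strand was present once, in the Meg3 window. It occurred in 5 of the 25 member windows and in 8.59% of the windows of all genes, again by first entry. The count depends on the entry taken. Mest had 0 matches in its first entry and 2 in each later one. Zdbf2 had 3 in its first and 0 in its other. A match is a description of the letters only.

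The members covered more than 3 orders of magnitude in FPKM, which is scaled to transcript length. Without control replicate 2, their median of mean levels was 31.6 FPKM over the 30 members tested, against 7.73 FPKM over all 16574 genes tested. A mean above 100 FPKM was found for 7 members, against 2.52% of all genes tested. The noncoding RNAs Rian, at 967 to 1058 FPKM, and Meg3, at 675 to 978 FPKM, were the most abundant in these 5 libraries. They were followed by Gnas, which encodes the alpha subunit of the stimulatory G protein (521 to 587 FPKM). Next came Nnat, which encodes the small membrane protein neuronatin (247 to 281 FPKM), and Nap1l5, a nucleosome assembly protein-like gene (237 to 272 FPKM). At the low end, Rtl1 was listed at 0.386 to 0.625 FPKM, and Phlda2, a regulator of placental growth, was at 0 in 4 of the 6 libraries. Phlda2 was listed at 0.649 FPKM in control replicate 2 and 0.113 FPKM in SMA replicate 1. Together the 32 members made up 0.996%, 1.14% and 1.10% of the summed FPKM in the control libraries and 1.06%, 1.06% and 1.08% in the SMA libraries.

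**Figure D1:**
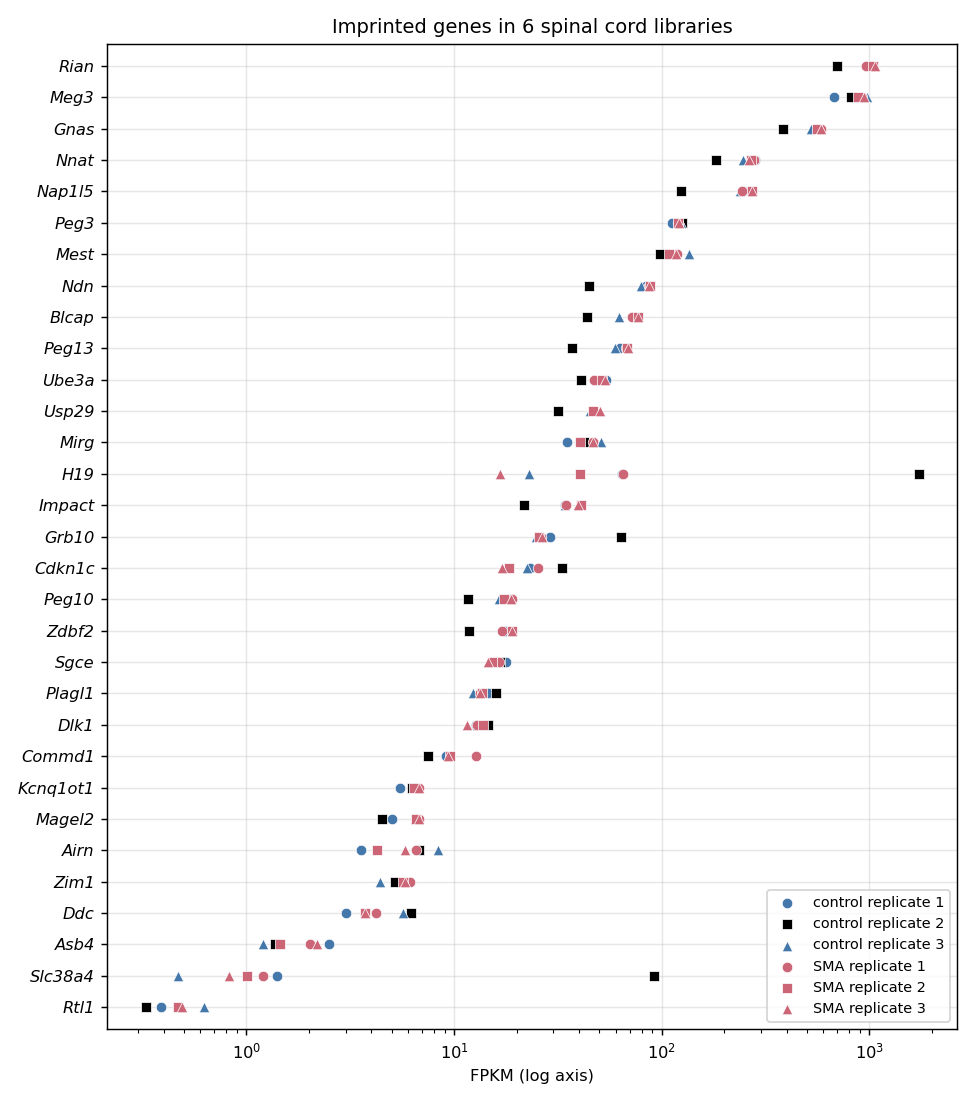
FPKM (log axis) of 31 members in each library, ordered by the median without control replicate 2, with Phlda2 left out because it was at 0 in 4 libraries. Control replicate 2 (black squares) lies at 1729 FPKM for H19 and 91.4 FPKM for Slc38a4, far to the right of the other libraries, and to the left of them for Ndn (44.6 FPKM) and Nap1l5 (124 FPKM).

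For SMA against control, no member passed an adjusted p of 0.05 in the 6 libraries (limma, smallest adjusted p = 0.683), and no gene did among the 17088 tested (0%). Of the 30 members that passed the filter of a mean of at least 0.5 FPKM, 0 were lower and 0 were higher at an unadjusted p under 0.05 in limma, beside 2.39% lower and 3.4% higher among all genes tested. The groups did not overlap for 5 members, all higher in SMA, and for 0 members lower in SMA, against 10.3% and 6.67% of all genes tested. The median log2 fold change on the log2(FPKM + 1) scale, which understates the change of low genes, was 0.15 over the members and 0.04 over all genes tested. By the unadjusted threshold all genes gave 409 lower and 581 higher, 386 and 338 with the libraries rescaled to the same summed FPKM, and 565 and 528 with median ratio scaling. Leaving out control replicate 1 gave 1 member lower (Ddc, -0.51) and 2 higher (Blcap, 0.52, and Peg13, 0.53), beside 573 lower and 1032 higher of 17115 genes. Leaving out control replicate 3 gave 1 higher (Magel2, 0.42), beside 712 lower and 1040 higher of all genes, and leaving out SMA replicate 1 gave 1 lower (Cdkn1c, -0.52), beside 306 and 238. The members were not tested as a set.

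Without control replicate 2, 1 member was higher (Peg13) and 0 were lower at an unadjusted p under 0.05 in limma, where 5.27% of the 16574 genes tested were higher and 5.2% lower. At an adjusted p under 0.05 there were 0 members and 2 of all genes (0.0121%). These were the small nucleolar RNA gene Snora74a and Rpph1, the RNA of ribonuclease P, named after their values were seen. Snora74a was at 0, 2.99 and 0 FPKM in the control libraries and 10.5, 7.85 and 5.56 FPKM in the SMA libraries. Its call in 5 libraries thus leaves out the only control library above 0. The same 5 members did not overlap between the groups, again all higher in SMA, against 14.2% of all genes tested, and 0 members were lower without overlap, against 13.9%. The median log2 fold change was 0.05 over the members and 0.00 over all genes. All genes gave 862 lower and 874 higher, and 1462 lower and 521 higher with the libraries rescaled to the same summed FPKM. The range over the members narrowed from between -1.94 and 0.43 in the 6 libraries to between -0.18 and 0.24. The median size of the log2 fold change, whatever its sign, was 0.08, against 0.10 for all genes tested. In the 6 libraries that median was 0.23 over the members, against 0.16 for all genes tested. Of the 30 members, 4 had the opposite sign in the 6 and the 5 libraries (Mest, Peg3, Slc38a4 and Ube3a), none of them past an unadjusted p of 0.05, and of all genes 3860 of 16490 did.

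The call counts in the 5 libraries moved with single libraries. With control replicate 1 also left out, 1206 of all 16566 genes were lower and 1437 higher by the unadjusted threshold, and of the members Airn (-0.54), Ddc (-0.45) and Mest (-0.24) were lower and Blcap (0.26), Peg13 (0.20) and Zim1 (0.35) were higher. With control replicate 3 left out instead, all 16603 genes gave 1368 lower and 1363 higher, and Magel2 (0.35), Meg3 (0.44) and Mirg (0.34) were higher. Each of these rests on a single control library. With SMA replicate 1 left out, 796 of 16551 genes were lower and 607 higher, and Cdkn1c (-0.35) was lower and Impact (0.22), Nap1l5 (0.17) and Peg13 (0.16) were higher. Without SMA replicate 2 (546 genes lower, 583 higher) or SMA replicate 3 (533 lower, 524 higher) there were 0 members in either direction. The genes at an adjusted p under 0.05 numbered 43 without control replicate 1, 3 without control replicate 3, 0 without SMA replicate 1 or 2 and 1 without SMA replicate 3.

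**Figure D2:**
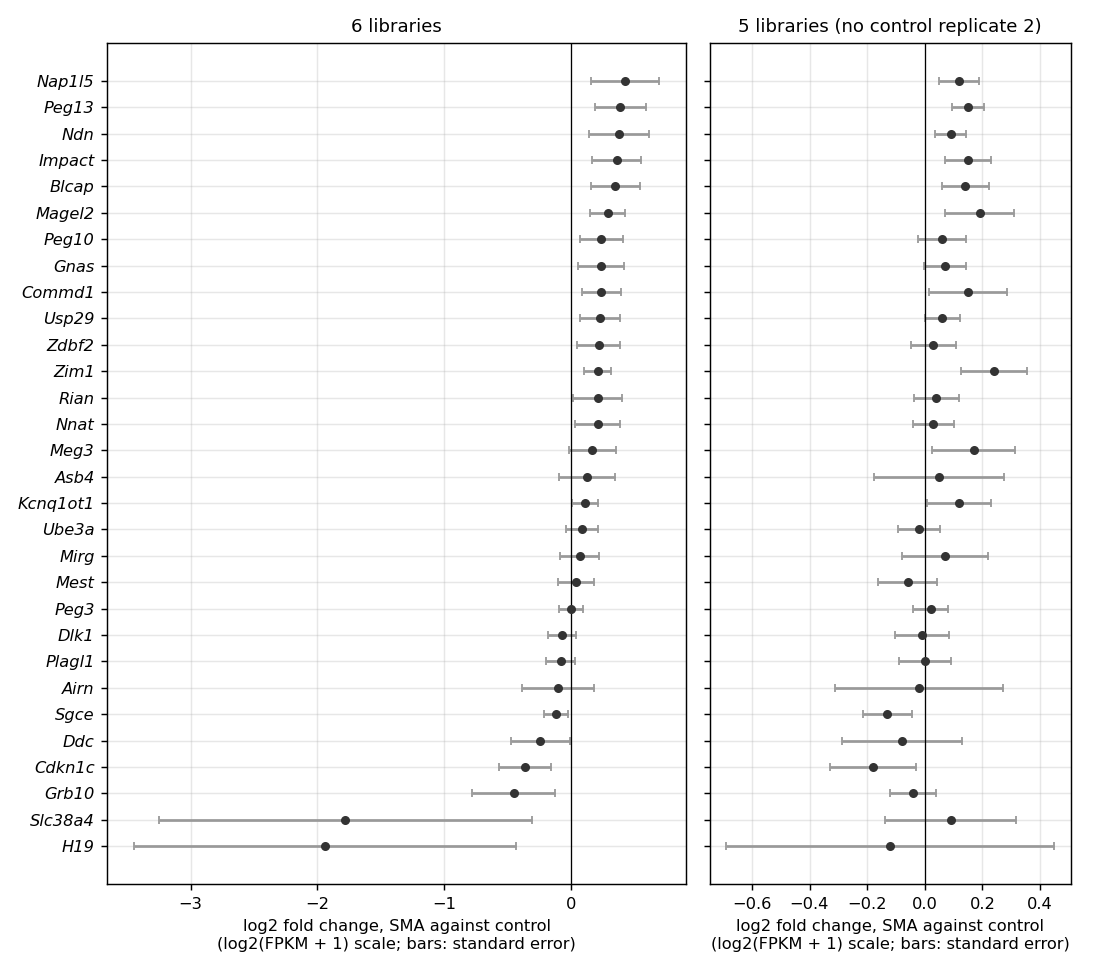
Log2 fold change of SMA against control with its standard error for the 30 members tested, in 6 libraries (left) and in the 5 without control replicate 2 (right), with different ranges on the horizontal axes. H19 and Slc38a4 lie at -1.94 and -1.78 on the left and at -0.12 and 0.09 on the right.

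Members of growth control were led by H19, whose levels were 64.2, 1729 and 23.0 FPKM in the control libraries and 64.7, 40.3 and 16.6 FPKM in the SMA libraries. Control replicate 2 was 42.9 times the median of the other 5 libraries, and those libraries overlapped between the groups. The mean was 605 ± 973 FPKM (SD, n = 3) in control and 40.6 ± 24.0 FPKM (SD, n = 3) in SMA libraries. The log2 fold change was -1.94 (SE 1.51; limma, adjusted p = 0.683) in 6 libraries and -0.12 (SE 0.570; limma, adjusted p = 0.957) in 5. With 1 more of the 5 libraries left out it lay on either side of 0, at 0.60 without control replicate 1, -0.85 without control replicate 3, -0.55 without SMA replicate 1, -0.22 without SMA replicate 2 and 0.40 without SMA replicate 3.

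Igf2, the paternally expressed growth factor gene next to H19, was named after its values were seen. It was listed at 75.4, 638 and 41.9 FPKM in the control libraries and 75.4, 40.4 and 19.6 FPKM in the SMA libraries. Igf2 was 0.369 times H19 in control replicate 2, and 1.00 to 1.82 times H19 in the other 5 libraries. Among those 5, both genes were highest in control replicate 1 and SMA replicate 1 and lowest in SMA replicate 3.

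Slc38a4, a sodium-coupled amino acid transporter of liver and placenta, was listed at 1.40, 91.4 and 0.468 FPKM in the control libraries and 1.20, 1.01 and 0.820 FPKM in the SMA libraries. Its level in control replicate 2 was 90.7 times the median of the other 5, the highest ratio among the 30 members tested. Its log2 fold change was -1.78 (SE 1.47; limma, adjusted p = 0.683) in 6 libraries and 0.09 (SE 0.227; limma, adjusted p = 0.912) in 5.

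Grb10, an adaptor that restrains insulin and IGF receptor signalling, was listed at 29.1, 63.6 and 24.9 FPKM in the control libraries and 26.4, 25.5 and 26.5 FPKM in the SMA libraries. In control replicate 2 it was 2.41 times the median of the others, while the SMA libraries lay within 1 FPKM of each other. Without that library the log2 fold change moved from -0.45 to -0.04. The window before its first listed promoter entry, printed above, is CG-rich, while that of another entry held 8 CG dinucleotides. Which of them is used in cord was not tested. Ddc, the neighbour that encodes aromatic amino acid decarboxylase of the monoamine pathway, was listed at 3.01, 6.20 and 5.68 FPKM in the control libraries and 4.22, 3.74 and 3.71 FPKM in the SMA libraries. The groups overlapped for both genes. Without control replicate 1, Ddc was lower at an unadjusted p under 0.05 (-0.51 in 6 libraries, -0.45 in 5), and without control replicate 3 it was at -0.14 and 0.28. The ratio of Ddc to Grb10 was 0.103 in control replicate 1 and 0.228 in control replicate 3, wider apart than the 3 SMA libraries (0.140 to 0.160).

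Cdkn1c, a cyclin-dependent kinase inhibitor that limits cell division, was listed at 23.2, 33.2 and 22.4 FPKM in the control libraries and 25.3, 18.4 and 17.0 FPKM in the SMA libraries. SMA replicate 1 lay above control replicates 1 and 3, so the groups overlapped. For Cdkn1c the log2 fold change was -0.36 (SE 0.204; limma, adjusted p = 0.683) in 6 libraries and -0.18 (SE 0.15; limma, adjusted p = 0.703) in 5. Without SMA replicate 1 these became -0.52 and -0.35, both at an unadjusted p under 0.05. Plagl1, a zinc finger transcription factor, was listed between 12.3 and 15.9 FPKM in all 6 libraries. Kcnq1ot1, the noncoding RNA that silences its own cluster on the father's copy, was listed between 5.49 and 6.79 FPKM, and its host Kcnq1, a potassium channel gene on the other strand, between 0.218 and 1.27 FPKM.

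**Figure D3:**
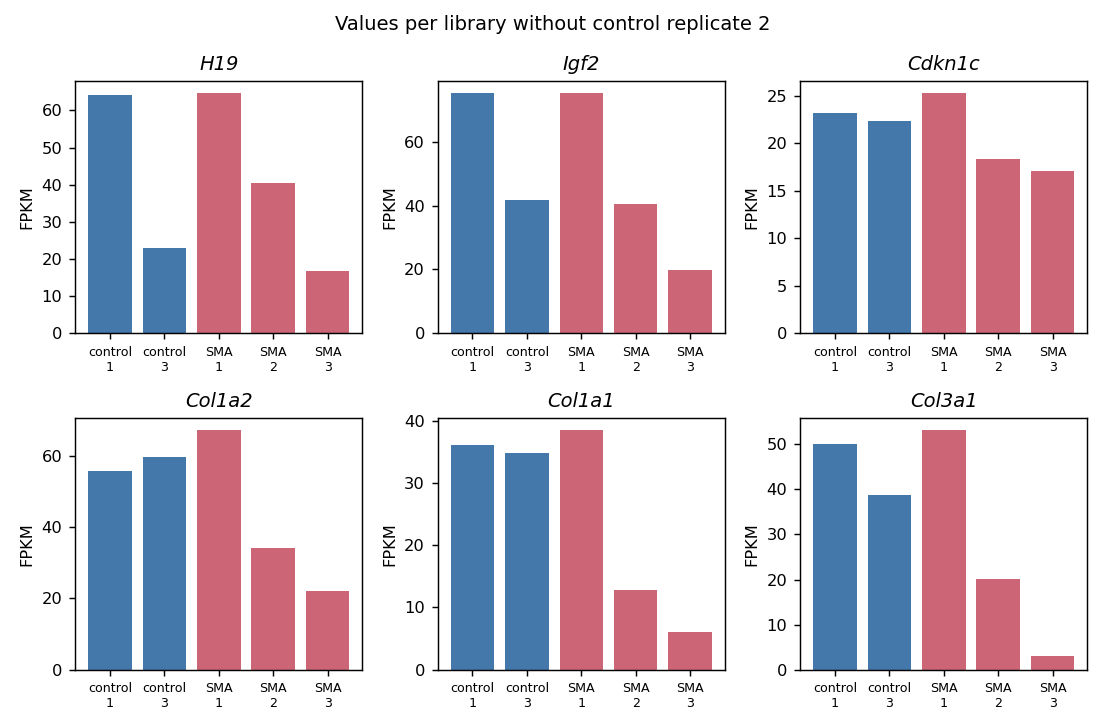
FPKM of H19, Igf2, Cdkn1c, and the fibroblast collagen genes Col1a2, Col1a1 and Col3a1 in the 5 libraries without control replicate 2 (blue, control; red, SMA; each vertical axis starts at 0). SMA replicate 3 is lowest in all 6 panels, at 16.6 FPKM for H19 and 3.10 FPKM for Col3a1.

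The 5 libraries also differed in fibroblast markers. The 6 fibroblast markers summed to 162 and 145 FPKM in control replicates 1 and 3 and to 177, 75.3 and 34.8 FPKM in SMA replicates 1 to 3, with Col1a2 the most abundant. H19, Igf2 and Cdkn1c were also lowest in SMA replicate 3, while in control replicate 3 H19 was low at 23.0 FPKM and the marker sum was not. At an unadjusted p under 0.05, 1 of 6 fibroblast markers was lower in SMA in 6 libraries (Lum) and 0 in 5, beside 2.39% and 5.2% of all genes. Their median log2 fold changes were -1.06 and -0.80. Without SMA replicate 1, Col1a2 (-0.93 in 6 libraries, -1.04 in 5), Col1a1 (-1.76, -1.89) and Col3a1 (-2.44, -2.27) came past it. Without SMA replicate 3 they did not (Col3a1 -0.57, -0.41). The part of these cells in the levels of H19, Igf2 and Cdkn1c was not tested.

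Ndn, which encodes necdin, a MAGE family protein of postmitotic neurons, was listed at 83.8, 44.6 and 79.7 FPKM in the control libraries and 87.2, 87.4 and 86.7 FPKM in the SMA libraries. Control replicate 2 was 0.514 times the median of the others, and the SMA libraries were all above the control libraries. Ndn had a log2 fold change of 0.38 (SE 0.238; limma, adjusted p = 0.683) in 6 libraries and 0.09 (SE 0.0531; limma, adjusted p = 0.592) in 5. The exact two-sided permutation test gave p = 0.1 in both cases, the smallest p that 3 libraries against 3 or 2 allow.

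Magel2, the MAGE family neighbour of Ndn, was listed at 5.05, 4.50 and 6.47 FPKM in the control libraries and 6.80, 6.53 and 6.75 FPKM in the SMA libraries. The gap between control replicate 3 and SMA replicate 2 was under 0.1 FPKM. Its log2 fold change was 0.29 in 6 libraries and 0.19 in 5, and without control replicates 1 and 2 it was 0.04. Without control replicate 3 it was 0.42 and 0.35, both past an unadjusted p of 0.05. The files give Ndn and Magel2 one shared span.

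Ube3a, the ubiquitin ligase gene of Angelman syndrome, was listed at 54.0, 40.7 and 49.0 FPKM in the control libraries and 47.4, 51.4 and 53.5 FPKM in the SMA libraries. Snhg14, the paternal noncoding transcript that runs antisense through Ube3a, was listed at 219, 192 and 244 FPKM in the control libraries and 256, 261 and 296 FPKM in the SMA libraries. Only Snhg14 was without overlap, with a log2 fold change of 0.31 (SE 0.136; limma, adjusted p = 0.683) in 6 libraries and 0.22 (SE 0.0843; limma, adjusted p = 0.437) in 5. The ratio of Ube3a to Snhg14 was 0.247, 0.212 and 0.200 in the control libraries and 0.185, 0.197 and 0.181 in the SMA libraries. In the 5 libraries Snhg14 was past an unadjusted p of 0.05, and no longer so without control replicate 1 (0.14), SMA replicate 2 (0.25) or SMA replicate 3 (0.16), nor with no filter (0.22), the same summed FPKM (0.17) or quantile normalization (0.16). In the 6 libraries it came past it only without control replicate 2 (0.22) or 3 (0.40). Both genes share exon bases on opposite strands.

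Peg13, a noncoding RNA from an intron of Trappc9 on chromosome 15, was the only member past an unadjusted p of 0.05 in the 5 libraries. It was listed at 63.1, 36.9 and 59.2 FPKM in the control libraries and 67.1, 68.0 and 69.0 FPKM in the SMA libraries, and all SMA libraries lay above all control libraries. The mean was 61.2 ± 2.71 FPKM (SD, n = 2) in control replicates 1 and 3 and 68.1 ± 0.946 FPKM (SD, n = 3) in SMA libraries. Its log2 fold change was 0.15 (SE 0.0559; limma, adjusted p = 0.435) in 5 libraries and 0.39 (SE 0.203; limma, adjusted p = 0.683) in 6. Rescaling to the same summed FPKM gave 0.10 in 5 libraries and the replicate number as a block gave 0.15, neither past the unadjusted threshold. It was also no longer past it without control replicate 3 (0.11), SMA replicate 2 (0.15) or SMA replicate 3 (0.14), while in 6 libraries it came past it without control replicate 1 (0.53). Trappc9, the host gene, was listed at 18.5, 13.2 and 19.4 FPKM in the control libraries and 18.6, 18.9 and 19.3 FPKM in the SMA libraries, with a log2 fold change of 0.00 in 5 libraries. The ratio of Peg13 to Trappc9 was 3.41, 2.79 and 3.06 in the control libraries and 3.62, 3.59 and 3.57 in the SMA libraries. The files give both genes the span of Trappc9.

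Nap1l5 was listed at 246, 124 and 237 FPKM in the control libraries and 243, 271 and 272 FPKM in the SMA libraries. Its level in control replicate 2 was 0.506 times the median of the others, the lowest ratio among the 30 members tested. Without that library its log2 fold change went from 0.43 to 0.12, and the groups overlapped. Leaving out SMA replicate 1 as well gave 0.17, past an unadjusted p of 0.05. Nap1l5 lies within Herc3 on the other strand, which was listed at 24.4 FPKM in control replicate 2 and between 36.1 and 45.7 FPKM elsewhere.

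Nnat and Blcap form a small cluster on chromosome 2, with Nnat in an intron of Blcap on the opposite strand. Nnat was listed at 281, 182 and 247 FPKM in the control libraries and 277, 269 and 264 FPKM in the SMA libraries. Blcap, named for loss of its expression in bladder cancer, was listed at 74.4, 43.4 and 62.6 FPKM in the control libraries and 71.7, 77.0 and 76.8 FPKM in the SMA libraries. Groups overlapped for both, and Blcap was higher at an unadjusted p under 0.05 only without control replicate 1 (0.52 in 6 libraries, 0.26 in 5). The ratio of Blcap to Nnat stayed between 0.239 and 0.291 over all 6 libraries, although the level of Nnat in control replicate 2 was 0.678 times the median of the others.

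**Figure D4:**
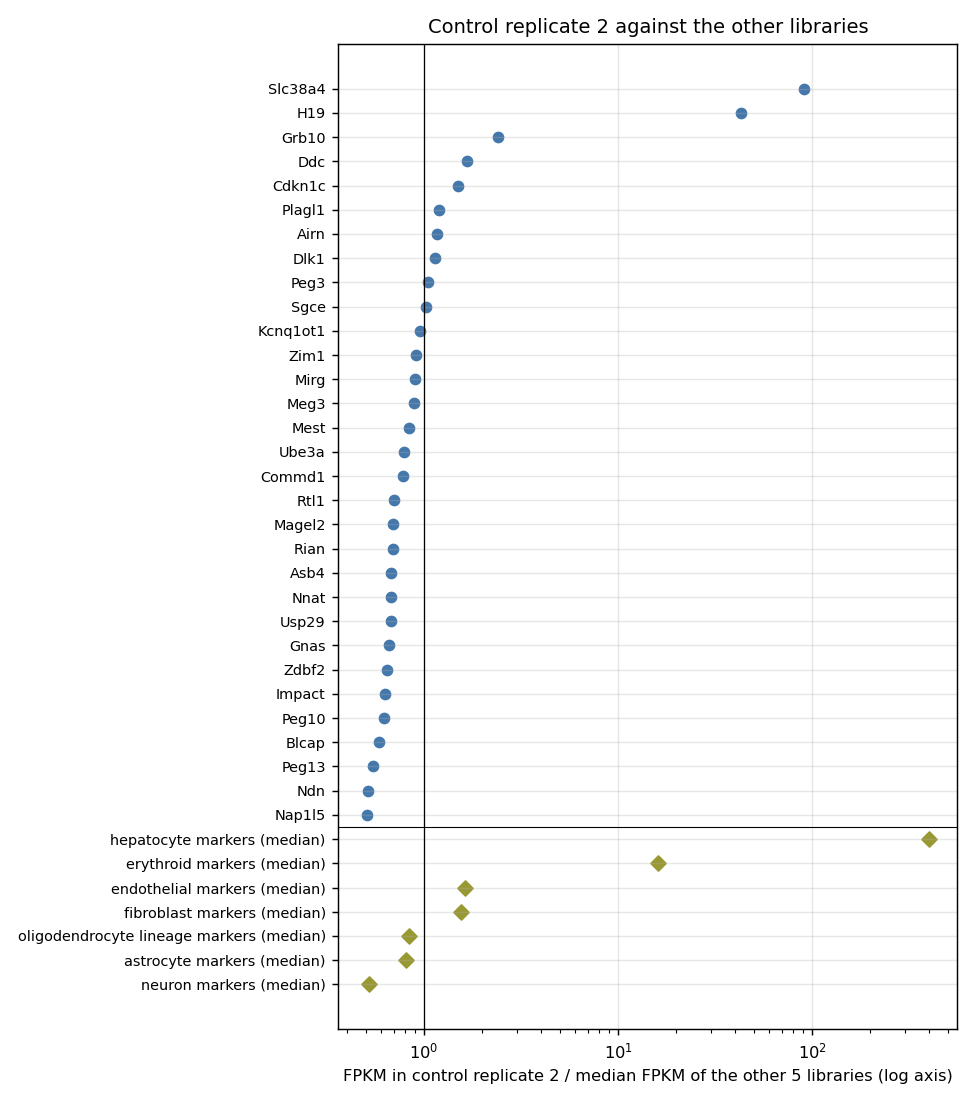
FPKM in control replicate 2 divided by the median of the other 5 libraries (log axis) for 31 members, above, and the median of this ratio over 7 marker lists, below the line. Ndn at 0.514 and Nap1l5 at 0.506, the lowest members, lie beside the neuron markers at 0.523. Nnat at 0.678, Meg3 at 0.885 and Peg3 at 1.05 lie to the right of these markers. Slc38a4 at 90.7 and H19 at 42.9 lie between the erythroid markers at 16 and the hepatocyte markers at 402.

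Over the 30 members tested, control replicate 2 was above the other 5 libraries for 8, below them for 15 and within their range for 7. Over all 17088 genes tested these shares were 24.7%, 44.9% and 30.5%. The 8 above were H19, Slc38a4, Grb10, Ddc, Cdkn1c, Plagl1, Dlk1 and Peg3. The ratio to the median of the others exceeded 1.5 for 4 members (13.3%), against 15.9% of all genes, and was under 1/1.5 for 8 (26.7%), against 19% of all genes. Its median was 0.815 over the members and 0.889 over all genes. By the parental copy known to be expressed, control replicate 2 was above the rest for 4 and below for 10 of 17 paternal genes, and above for 2 and below for 1 of 7 maternal genes. For 6 genes whose expressed copy depends on tissue, it was above for 2 and below for 4. The part of hepatocyte, erythroid or neuronal RNA in these ratios was not tested.

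The Dlk1-Dio3 cluster on chromosome 12 holds noncoding RNAs of the mother's copy and protein-coding genes of the father's. Meg3, the first of the noncoding RNAs, was listed at 675, 812 and 978 FPKM in the control libraries and 917, 882 and 945 FPKM in the SMA libraries. Rian, which carries small nucleolar RNAs, was listed at 968, 698 and 1012 FPKM in the control libraries and 967, 1036 and 1058 FPKM in the SMA libraries. Mirg, the miRNA-rich transcript at the far end, was listed at 35.0, 42.1 and 51.1 FPKM in the control libraries and 46.8, 40.3 and 46.6 FPKM in the SMA libraries. Meg3 was lowest in control replicate 1, as Mirg was, whereas Rian was lowest in control replicate 2.

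The ratio of Mirg to Meg3 stayed between 0.0456 and 0.0523 over the 6 libraries, control replicate 2 (0.0518) included. Rian stood at 1.43 times Meg3 in control replicate 1, at 0.860 times in control replicate 2 and at 1.04 to 1.17 times in the remaining 4 libraries. The groups overlapped for all 3 RNAs, with log2 fold changes of 0.17 for Meg3, 0.21 for Rian and 0.07 for Mirg in 6 libraries (exact permutation p = 0.4, 0.3 and 0.7). In 5 libraries the log2 fold changes were 0.17, 0.04 and 0.07. Without control replicates 2 and 3, Meg3 (0.44) and Mirg (0.34) were higher in SMA at an unadjusted p under 0.05 in limma, against control replicate 1 alone. Against control replicate 3 alone they were at -0.10 and -0.20.

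Dlk1, a transmembrane ligand related to those of Notch, was listed at 12.7, 14.6 and 12.9 FPKM in the control libraries and 12.9, 13.8 and 11.5 FPKM in the SMA libraries. Rtl1, over the opposite strand of the miRNAs printed above, was listed at 0.386, 0.328 and 0.625 FPKM in the control libraries and 0.467, 0.468 and 0.489 FPKM in the SMA libraries. It missed the filter on low values. The groups overlapped for both genes.

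**Figure D5:**
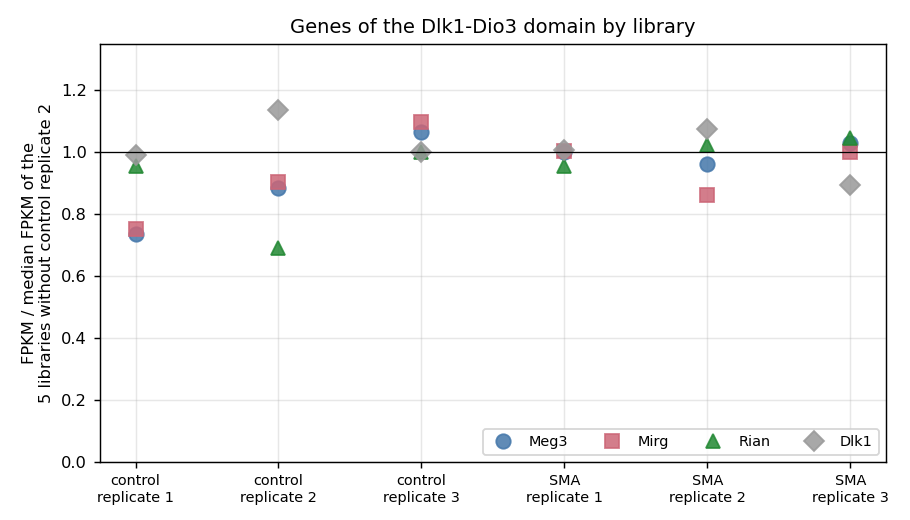
FPKM of Meg3, Mirg, Rian and Dlk1 in each library, divided by the gene's median over the 5 libraries without control replicate 2. In control replicate 1 Meg3 (675 FPKM) and Mirg (35.0 FPKM) lie together below Rian (968 FPKM), and in control replicate 2 Rian (698 FPKM) is the lowest.

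Peg3, a zinc finger gene of the father's copy, was among the steadiest members, at 112, 125 and 124 FPKM in the control libraries and 119, 119 and 122 FPKM in the SMA libraries. Usp29, which encodes a ubiquitin-specific peptidase and starts head to head with Peg3 from the stretch printed above, was listed at 46.7, 31.6 and 45.3 FPKM in the control libraries and 46.7, 46.8 and 50.2 FPKM in the SMA libraries. Usp29 stood at 0.253 times Peg3 in control replicate 2 and at 0.364 to 0.417 times elsewhere. Zim1, a maternally expressed zinc finger gene of the same cluster, was listed at 5.29, 5.17 and 4.39 FPKM in the control libraries and 6.11, 5.69 and 5.79 FPKM in the SMA libraries. All SMA libraries were above all control libraries, control replicate 2 included. The log2 fold change of Zim1 was 0.21 (SE 0.108; limma, adjusted p = 0.683) in 6 libraries and 0.24 (SE 0.115; limma, adjusted p = 0.524) in 5, where it became 0.35, past an unadjusted p of 0.05, without control replicate 1.

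Impact, which encodes a regulator of the translational response to amino acid shortage, was listed at 34.3, 21.6 and 34.4 FPKM in the control libraries and 34.5, 41.0 and 39.3 FPKM in the SMA libraries. The groups did not overlap, although SMA replicate 1 exceeded control replicate 3 by under 0.1 FPKM. The log2 fold change was 0.36 in 6 libraries and 0.15 in 5 (SE 0.0813; limma, adjusted p = 0.566), and without SMA replicate 1 the latter became 0.22, past an unadjusted p of 0.05. Gnas was listed at 580, 385 and 521 FPKM in the control libraries and 584, 557 and 587 FPKM in the SMA libraries, again with control replicate 2 lowest and with overlapping groups.

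Peg10, a retrotransposon-derived gene, and Sgce, which encodes epsilon-sarcoglycan, start beside each other on chromosome 6. Peg10 was listed at 18.8, 11.7 and 16.5 FPKM in the control libraries and 18.97, 17.4 and 18.9 FPKM in the SMA libraries. Sgce was listed at 17.8, 16.6 and 16.2 FPKM in the control libraries and 16.5, 15.1 and 14.6 FPKM in the SMA libraries. Their ratio was 0.706 in control replicate 2 and 1.02 to 1.29 in the others, so Peg10 alone was low in that library. Asb4 of the same cluster, a gene of the ankyrin repeat and SOCS box family, was listed between 1.20 and 2.49 FPKM.

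The other members overlapped between the groups. Mest, which encodes a protein of the alpha/beta hydrolase fold, was listed between 97.8 and 135 FPKM, highest in control replicate 3, and lower in SMA at an unadjusted p under 0.05 only without control replicates 1 and 2 (-0.24; 0.12 without control replicates 2 and 3). Airn, the noncoding RNA that silences the father's copy of Igf2r, was listed at 3.58, 6.77 and 8.38 FPKM in the control libraries and 6.53, 4.25 and 5.82 FPKM in the SMA libraries. Leaving out control replicates 1 and 2 gave a log2 fold change of -0.54, past an unadjusted p of 0.05, and leaving out control replicates 2 and 3 gave 0.50. Its ratio to Igf2r, the receptor that clears IGF2, was between 0.417 and 0.868, with both ends of that range in control libraries. Zdbf2, a zinc finger gene, was listed at 11.8 FPKM in control replicate 2 and between 17.0 and 19.1 FPKM elsewhere. Commd1, a gene of copper handling, was listed between 7.48 and 12.8 FPKM.

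Spread between libraries was read without control replicate 2. The median ratio of the highest to the lowest of the 5 libraries was 1.21 over the members and 1.32 over all genes tested, which lay at lower FPKM. The ratio was above 2 for H19 (3.89), Slc38a4 (3.00), Airn (2.34) and Asb4 (2.08).

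Of 48 other imprinted genes, 47 were listed and 36 were tested in 6 libraries. At an unadjusted p under 0.05 in limma, 0 were lower and 1 was higher, Osbpl5, and without control replicate 2, 0 of 32 were lower and 2 were higher, Osbpl5 and Snhg14. Of all genes 3.4% were higher in 6 libraries and 5.27% in 5. The median log2 fold change was 0.15 in 6 libraries and 0.06 in 5, against 0.04 and 0.00 over all genes. Osbpl5, an oxysterol-binding protein gene, was listed at 12.7, 12.3 and 14.8 FPKM in the control libraries and 17.7, 16.8 and 15.4 FPKM in the SMA libraries. Every SMA library was above every control library, and the log2 fold change was 0.30 (SE 0.109; limma, adjusted p = 0.683) in 6 libraries and 0.26 (SE 0.0955; limma, adjusted p = 0.436) in 5. It was no longer past an unadjusted p of 0.05 without control replicate 1 (0.27 in 6 libraries, 0.15 in 5), SMA replicate 1 (0.26, 0.21) or SMA replicate 2 (0.30, 0.25). The same held with the libraries rescaled to the same summed FPKM (0.33, 0.21) and with the replicate number as a block (0.30, 0.25). The other abundant genes of this list were Snrpn, which encodes a protein of the spliceosomal Sm core, Inpp5f, a phosphoinositide phosphatase gene, the tetraspanin gene Cd81 and Adam23. These 4 were all lowest in control replicate 2, at 128, 119, 145 and 45.9 FPKM, and overlapped between the groups.

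Of 19 genes grouped here under imprint maintenance, whether or not each does so in cord, 18 were listed and 16 were tested. At an unadjusted p under 0.05 in limma, 1 was lower in both fits and 0 were higher. Of all genes 2.39% were lower in 6 libraries and 5.2% in 5. The median log2 fold change was 0.01 in 6 libraries and 0.00 in 5. The lower gene was Uhrf1, which brings the maintenance methyltransferase to newly replicated DNA. Uhrf1 was listed at 4.99, 13.6 and 5.23 FPKM in the control libraries and 3.81, 2.52 and 2.78 FPKM in the SMA libraries, with every SMA library below every control library. The log2 fold change was -1.03 (SE 0.354; limma, adjusted p = 0.683) in 6 libraries and -0.61 (SE 0.159; limma, adjusted p = 0.318) in 5. In 6 libraries Uhrf1 lost the unadjusted threshold without SMA replicate 2 (-0.94) or SMA replicate 3 (-0.99). Zfp57, whose protein binds the hexamer marked above, was listed at 24.3, 19.04 and 30.7 FPKM in the control libraries and 27.3, 28.3 and 28.6 FPKM in the SMA libraries. The groups overlapped for Zfp57, which was higher at an unadjusted p under 0.05 only without control replicate 3 (0.37 in 6 libraries, 0.20 in 5), and was at 0.21 and -0.13 without control replicate 1. Trim28, which encodes the corepressor that ZFP57 recruits, was the most abundant of the list, at 79.1 to 101 FPKM over the 6 libraries. Zfp445, a second zinc finger gene of imprint maintenance, was listed at 33.4 to 42.6 FPKM, the histone methyltransferase gene Ehmt2 at 50.2 to 64.8 FPKM and the DNA methyltransferase gene Dnmt3a at 46.5 to 69.1 FPKM. Ctcfl was at 0 in the 5 libraries without control replicate 2.

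Markers of neural and other cells of the cord were listed in every library. Astrocyte markers summed to 470 FPKM in control replicate 2 and 530 to 589 FPKM elsewhere, with Gfap the most abundant. Oligodendrocyte lineage markers summed to 674 to 1216 FPKM, with Mbp the most abundant. Skeletal muscle markers summed to at most 7.08 FPKM, with Myog at 0 in the 5 libraries, and cartilage and bone markers to at most 5.95 FPKM. Endothelial markers were lower in SMA for 5 of 7 genes at an unadjusted p under 0.05 in both fits, with sums of 53.7, 62.1 and 55.3 FPKM in the control libraries and 43.1, 33.4 and 33.99 FPKM in the SMA libraries. These counts stand beside 2.39% of all genes lower in 6 libraries and 5.2% in 5. The call of Kdr was lost without control replicate 3 (-0.55 in 6 libraries, -0.24 in 5), SMA replicate 2 (-0.43, -0.27) or SMA replicate 3 (-0.53, -0.37). Mural markers were lower for 3 of 5 tested genes in 6 libraries (Rgs5, Abcc9 and Acta2, median -0.39) and for 2 of 5 in 5 libraries (Rgs5 and Abcc9, median -0.27). In 6 libraries Rgs5 lost its call without control replicate 3 (-0.23), SMA replicate 1 (-0.44), 2 (-0.34) or 3 (-0.39), and Abcc9 without SMA replicate 1 (-0.40), 2 (-0.39) or 3 (-0.41). In 5 libraries Abcc9 lost it without control replicate 3 (-0.19), SMA replicate 1 (-0.27), 2 (-0.26) or 3 (-0.28). At an unadjusted p under 0.05 in 5 libraries, astrocyte markers were lower for 1 of 6 genes and oligodendrocyte lineage markers for 2 of 8, and in 6 libraries for 0 of either. Neuron markers were higher for 3 of 10 genes in 5 libraries (Rbfox3, Syt1 and Slc32a1), beside 5.27% of all genes, and for 0 in 6, with median log2 fold changes of 0.04 and 0.34. The part of these cells in the levels of the members was not tested.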

How the data were processed

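Spinal cord RNA at postnatal day 4 was depleted of ribosomal RNA and made into strand-specific libraries, 3 for each group. The deposited values are FPKM per gene, which the authors computed for each library. Per the labels, the authors used HISAT2, Cufflinks and the mm10 build, with no versions given. A gene absent from a file was taken as 0 FPKM. The numbers of reads were not used here, so counting intervals are not given.

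A gene entered the test if its mean over the compared libraries reached 0.5 FPKM. Tests on log2(FPKM + 1) used lmFit and eBayes (trend) of limma 3.58.1 in R 4.3.3. Tests were two-sided and had no covariate, and adjustment of p-values (Benjamini and Hochberg) covered every gene that entered. The study's methods name a count-based comparison, whose counts were not used here. Exact permutation tests compared mean log2(FPKM + 1), with a smallest p of 0.1. The fit was tested on simulated data. Ratios used FPKM. Tables and figures used Python 3.11.15, pandas 2.3.3, numpy 2.4.6 and matplotlib 3.10.9. Loci come from GENCODE M21 and sequences from RefSeq.

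The members and lists were chosen with earlier results of these data known. Named genes were all members, genes overlapping them, Smn1, the 3 most abundant of each marker list, and of the other imprinted and imprint maintenance genes those at an unadjusted p under 0.05 and the 5 with the highest mean FPKM. Marker lists were hepatocyte, erythroid, neuron, astrocyte, oligodendrocyte lineage, microglia, endothelial, fibroblast, mural, skeletal muscle, cartilage and bone, and Schwann. Alternatives were a pseudocount of 0.1, no filter or a minimum mean of 1 FPKM, 3 other scalings, robust eBayes, a replicate block and leaving out each library.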

Additional observations from a re-analysis of the deposited data

How the results depend on the processing

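In the 6 libraries, 0 genes passed an adjusted p of 0.05 and 0 members an unadjusted p of 0.05 under a pseudocount of 0.1, no filter, a minimum mean of 1 FPKM, 3 other scalings, robust eBayes and the replicate block. Leaving out each library in turn gave 0 to 2 genes at an adjusted p under 0.05, 0 to 1 members lower and 0 to 2 higher (all genes 125 to 862 lower and 214 to 1040 higher), and a median log2 fold change of the members from 0.05 to 0.22. Over the other alternatives that median lay between 0.10 and 0.20.

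In the 5 libraries without control replicate 2, the 2 genes at an adjusted p under 0.05 became 0 with no filter, 1 with the same summed FPKM and 1 with median ratio scaling. The 1 member higher became 0 with the same summed FPKM, and the median over the members moved from 0.05 to 0.01 with that scaling and to 0.02 with quantile normalization. Leaving out each library gave 0 to 43 genes, 0 to 3 members lower, 0 to 3 higher (all genes 533 to 1368 lower and 524 to 1437 higher) and medians from 0.03 to 0.09. With a control left out, the lone control is assumed to vary like the SMA libraries. Herc3, which overlaps Nap1l5, reversed from 0.02 to -0.15 without control replicate 1 and was 0.18 without control replicate 3. The causes were not tested.

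With the replicate number as a block, the 5 libraries gave 0 genes at an adjusted p under 0.05, 0 members higher and a median of 0.09, and the 6 libraries gave 0 genes and a median of 0.15. Under the block, 4 named genes lost an unadjusted p under 0.05 in 5 libraries and 2 in 6, while 6 and 2 came past it. With the same summed FPKM, 3 named genes lost it in 5 libraries and 2 in 6, while 2 came past it in 5. Same-numbered libraries had correlations of deviations from the group means of -0.037, 0.016 and 0.077 over genes. Not every library correlated best with its own number. The control means included control replicate 2, so these correlations cannot show whether a shared number marks a pairing.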
